A study of Mus musculus with 2 samples.

Results

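The 8 genes described here set whether a cell stays out of the cell cycle. They are the kinase inhibitors Cdkn1a, Cdkn1b, Cdkn1c and Cdkn2d, the retinoblastoma gene Rb1 and the D-type cyclins Ccnd1, Ccnd2 and Ccnd3. They were found by symbol among the 33696 genes of the deposited count matrices, and all 8 were present. The data were single-nucleus RNA-sequencing counts from 2 libraries of mouse cochlea, which the labels call basement membranes of cochlea, from mice at P7 that had been injected with tamoxifen at P1. The Serpine2 cOE library pooled 20 cochleae of genotype Lgr5EGFP-CreER/+,Serpine2loxp/loxp, and the control library pooled 19 cochleae of genotype Serpine2loxp/loxp. Serpine2 encodes a secreted inhibitor of serine proteases. Both groups carried the loxP-flanked Serpine2 alleles and both received tamoxifen, so they differed in the CreER driver, whose expression follows Lgr5. The series uses cOE for conditional overexpression, but the labels do not say what recombination of the loxP-flanked allele does to Serpine2, so the counts below do not check the label. With 1 library per group there was no replicate, and no test between groups could be made. Every interval below is a 95% interval that covers counting error only.

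D-type cyclins activate the kinases that phosphorylate the retinoblastoma protein, which releases E2F factors and lets a cell enter S phase. Inhibitors of the INK4 family, such as the product of Cdkn2d, block the kinases that bind D-type cyclins, and inhibitors of the CIP/KIP family, the products of Cdkn1a, Cdkn1b and Cdkn1c, bind a wider range of cyclin and kinase pairs. In the mouse organ of Corti, hair cells and supporting cells leave the cell cycle before birth. Loss of Cdkn1b lets supporting cells keep dividing after that time, and loss of Cdkn2d or Rb1 lets hair cells enter the cycle again, often followed by their death.

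In GRCm39 with the GENCODE M39 annotation, Cdkn1b spans chromosome 6, 134897364 to 134902476, on the plus strand, and Cdkn2d spans chromosome 9, 21199700 to 21202727, on the minus strand. Promoter windows from RefSeq, 250 bases before to 50 bases after the annotated start, were available for 4 of the 8 genes (build GRCm38.p6). The windows of Cdkn1b and Cdkn2d are shown because, as given below, Cdkn1b was highest in supporting cell-like nuclei and Cdkn2d in hair cell-like nuclei. Between these classes the Cdkn2d difference fell short of 2-fold in control. The Cdkn1b window lies at chr6:134920151-134920450 on the plus strand, and the Cdkn2d window at chr9:21291160-21291459 on the minus strand. Capitals mark CCAAT read on either strand, which is 3 matches in Cdkn1b and 1 in Cdkn2d. At least 1 such match was present in 37.4% of 32851 promoter windows of this length, so its presence sets neither gene apart. No match to the E2F motif TTTNNCGC, present in 5.17% of the windows, was found in either.
Cdkn1b: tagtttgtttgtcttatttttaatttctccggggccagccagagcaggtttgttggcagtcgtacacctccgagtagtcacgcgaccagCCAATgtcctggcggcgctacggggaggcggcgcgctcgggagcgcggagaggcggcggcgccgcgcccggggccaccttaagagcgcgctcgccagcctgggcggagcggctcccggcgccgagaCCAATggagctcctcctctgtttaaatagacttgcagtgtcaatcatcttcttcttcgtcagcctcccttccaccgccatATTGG
Cdkn2d: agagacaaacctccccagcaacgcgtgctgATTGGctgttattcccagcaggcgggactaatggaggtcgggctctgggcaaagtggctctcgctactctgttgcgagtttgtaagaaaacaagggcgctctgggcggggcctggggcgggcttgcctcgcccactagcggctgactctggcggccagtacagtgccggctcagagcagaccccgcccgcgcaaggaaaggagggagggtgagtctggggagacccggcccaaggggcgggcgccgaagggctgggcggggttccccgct

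The control library held 9820 barcodes and 31158971 UMIs, and the Serpine2 cOE library 12014 barcodes and 40429121 UMIs. After filtering, 8953 and 10817 nuclei were kept, with medians of 2297 and 2512 UMIs. The libraries shared 27 barcodes. A nucleus was put in a class when it had at least 4 distinct markers of that class's list, at least 1.5 times as many as of the next of 15 lists, and at most 3 of any other list. In cOE and control this gave 316 and 261 hair cell-like, 129 and 67 supporting cell-like, 114 and 60 Koelliker organ-like, 540 and 306 roof epithelium-like, 2359 and 1805 mesenchyme-like and 89 and 103 macrophage-like nuclei. Most Koelliker organ-like nuclei stood at the minimum of 4 markers, 86.0% in cOE and 80.0% in control, so that class is the least firmly gated. Levels are CPM, the UMIs of a gene summed over a class and scaled by that class's total. The hair cell markers summed to 14751 and 12415 CPM in hair cell-like nuclei of cOE and control and to 217 and 171 CPM in supporting cell-like nuclei. The supporting cell markers summed to 1846 and 2094 CPM in supporting cell-like nuclei and to 230 and 192 CPM in hair cell-like nuclei. The 6 Koelliker organ markers summed to 4261 and 4940 CPM in Koelliker organ-like nuclei, but also to 2276 and 2343 CPM in supporting cell-like nuclei. Among them, Crabp1 held only 2.41 and 0 CPM in Koelliker organ-like nuclei. Calb1 stood at 178 and 180 CPM there, below 803 and 779 CPM in hair cell-like nuclei. Serpine2 itself stood at 218 CPM in cOE and 199 CPM in control supporting cell-like nuclei, with intervals of 183 to 258 and 153 to 254, so these counts did not separate the groups there. Over all kept nuclei it stood at 85.7 and 88.4 CPM. In macrophage-like nuclei it stood at 39.6 and 86.1 CPM, on 8 and 18 UMIs.

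Cdkn1b, a CIP/KIP inhibitor, was highest in supporting cell-like nuclei and, by summed UMIs, lowest in hair cell-like nuclei in both libraries. In the cOE library it stood at 289 CPM (180 UMIs, interval 248 to 335) in supporting cell-like nuclei and at 50.3 CPM (83 UMIs, interval 40.04 to 62.3) in hair cell-like nuclei. In the control library the levels were 240 CPM (77 UMIs, interval 189 to 299) and 52.8 CPM (62 UMIs, interval 40.5 to 67.7). The intervals of the classes were far apart in each library. Hair cell-like over supporting cell-like gave a log2 ratio of -2.52 (interval -2.92 to -2.14) in cOE and -2.18 (-2.69 to -1.68) in control, or 5.75-fold and 4.54-fold lower in hair cell-like nuclei. The Cdkn1b ratio was at least 2-fold lower in both libraries under all 16 alternative settings that gave a ratio, which included every other gate looked at. Koelliker's organ lies in the greater epithelial ridge next to the organ of Corti. Koelliker organ-like nuclei came second in order, at 125 CPM in cOE and 149 CPM in control. Their interval was apart from that of supporting cell-like nuclei in cOE but not in control. The other 3 classes lay between 64.1 and 90.9 CPM. The hair cell-like interval was apart from that of mesenchyme-like nuclei, next by mean over libraries, in cOE but not in control. With each nucleus weighted equally, hair cell-like nuclei of control stood at 81.1 CPM. That was above mesenchyme-like (62.9 CPM) and roof epithelium-like nuclei (59.9 CPM), so the lowest place of hair cell-like nuclei is not firm in control.

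The Cdkn1b level also climbed with the number of supporting cell markers detected in a nucleus, before any class was assigned and with mixed nuclei left out. With no such marker it was 78.2 CPM in cOE (3925 nuclei) and 71.4 CPM in control (4289 nuclei). With 3 markers it was 152 and 159 CPM, and with 4 to 5 it was 291 and 212 CPM. With 6 or more markers it was 286 CPM (33 nuclei) and 293 CPM (18 nuclei). Nuclei with at least 4 markers meet the gate's minimum, so those levels are not separate from the class result. Median depth rose from 2172 UMIs with no marker to 5880 with 6 or more in cOE, and from 2010 to 5432.5 in control. The part of depth in the climb was not tested. Cdkn1b is not in the marker list. Over hair cell markers there was no such climb. Cdkn1b stood at 95.04 and 84.7 CPM with no marker, at 121 and 97.1 CPM with 2 and at 98.7 and 82.7 CPM with 3, and was low, at 50.6 and 44.8 CPM, only with 6 or more. Nuclei with 4 to 5 hair cell markers were few, and their intervals were wide, 39.3 to 233 CPM and 83.4 to 268 CPM.

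**Figure D1:**
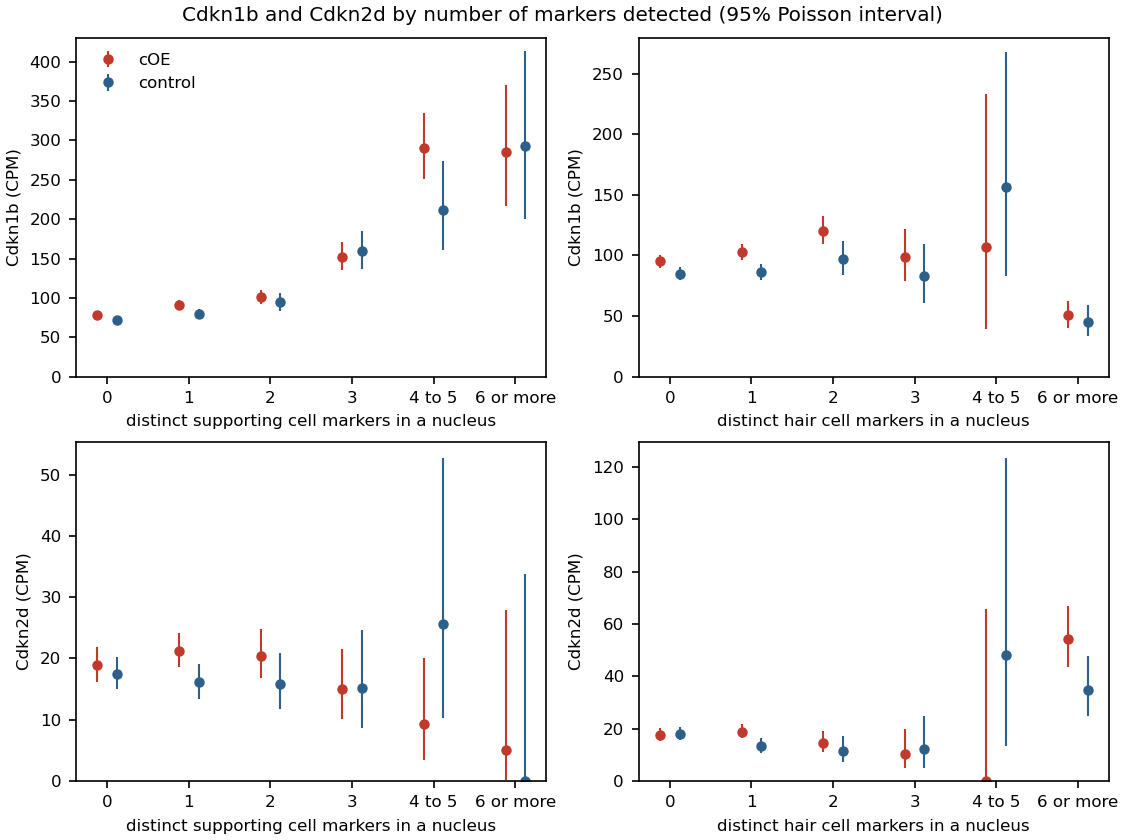
Cdkn1b and Cdkn2d level (CPM, linear axis from 0) against the number of distinct supporting cell or hair cell markers in a nucleus, mixed nuclei left out. Points are sums over nuclei of 1 library (red, cOE; blue, control) and bars are 95% Poisson intervals; Cdkn1b goes from 78.2 and 71.4 CPM at 0 supporting cell markers to 286 and 293 CPM at 6 or more, and Cdkn2d is highest in nuclei rich in hair cell markers.

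When each nucleus was thinned to 1000 UMIs, Cdkn1b had a UMI in 42 of 128 supporting cell-like nuclei in cOE, 32.8% (Clopper-Pearson interval 24.8 to 41.7%), and in 9 of 65 in control, 13.8% (6.53 to 24.7%). In hair cell-like nuclei it had a UMI in 4.53% (2.50 to 7.49%) in cOE and 7.17% (4.23 to 11.2%) in control. The share in supporting cell-like nuclei was above that in hair cell-like nuclei in both libraries, with overlapping intervals in control. Unthinned, the shares were 63.6% and 64.2% in supporting cell-like and 19.3% and 20.3% in hair cell-like nuclei. The gap between libraries in the thinned shares of supporting cell-like nuclei is absent from the unthinned ones. No class lacked Cdkn1b, so no share here could serve as the level of free RNA. Supporting cell markers in hair cell-like nuclei stood at 230 and 192 CPM, and the part of free RNA in the hair cell-like Cdkn1b level was not tested.

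Cdkn2d, the INK4 inhibitor, was highest in hair cell-like nuclei in both libraries. The hair cell-like level was 53.9 CPM (89 UMIs, interval 43.3 to 66.3) in cOE and 36.6 CPM (43 UMIs, interval 26.5 to 49.3) in control. Mesenchyme-like nuclei came next by mean over libraries, at 18.2 CPM in cOE (interval 15.2 to 21.6) and 12.5 CPM in control (interval 9.81 to 15.7). Hair cell-like nuclei were apart from mesenchyme-like nuclei in both libraries, and no other neighbours in the order were. Supporting cell-like nuclei held 5 Cdkn2d UMIs in cOE (8.03 CPM, interval 2.61 to 18.7) and 6 in control (18.7 CPM, interval 6.85 to 40.6). Hair cell-like over supporting cell-like was therefore 2.75 on the log2 scale (interval 1.47 to 4.40) in cOE and 0.97 (-0.27 to 2.50) in control. The control ratio fell just short of 2-fold and its interval included 0. Cdkn2d was 2-fold higher in both libraries in 6 of the 15 alternative settings that gave a ratio.

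Against all other kept nuclei, Cdkn2d in hair cell-like nuclei had log2 ratios of 1.69 in cOE and 1.30 in control. A gene is called different between classes below when it is at least 2-fold apart in the same direction in both libraries and has at least 20 UMIs over the compared groups in each. By that rule Cdkn2d was called higher, Cdkn1a and Ccnd2 were called lower, and the other 5 genes were not called in hair cell-like nuclei. Over all 18817 genes that could be called, 10.9% were higher and 19.8% lower. The Cdkn2d call rests on leaving mixed nuclei, those with more than 3 markers of a second list, out of the hair cell-like class. They stayed among the other kept nuclei on the comparison side. Mixed nuclei held 11289349 of the 39689458 UMIs of kept nuclei in cOE and 8415887 of 30597988 in control. With mixed nuclei kept, 592 and 480 nuclei were hair cell-like, and the Cdkn2d ratios to the rest were 0.79 and 0.71. The median depth of mixed nuclei was 9895 UMIs in cOE and 10258 in control, against 4892 and 4400 in hair cell-like nuclei. The Cdkn1a call was lost in 6 of 9 alternatives and the Ccnd2 call in 2 of 9.

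**Figure D2:**
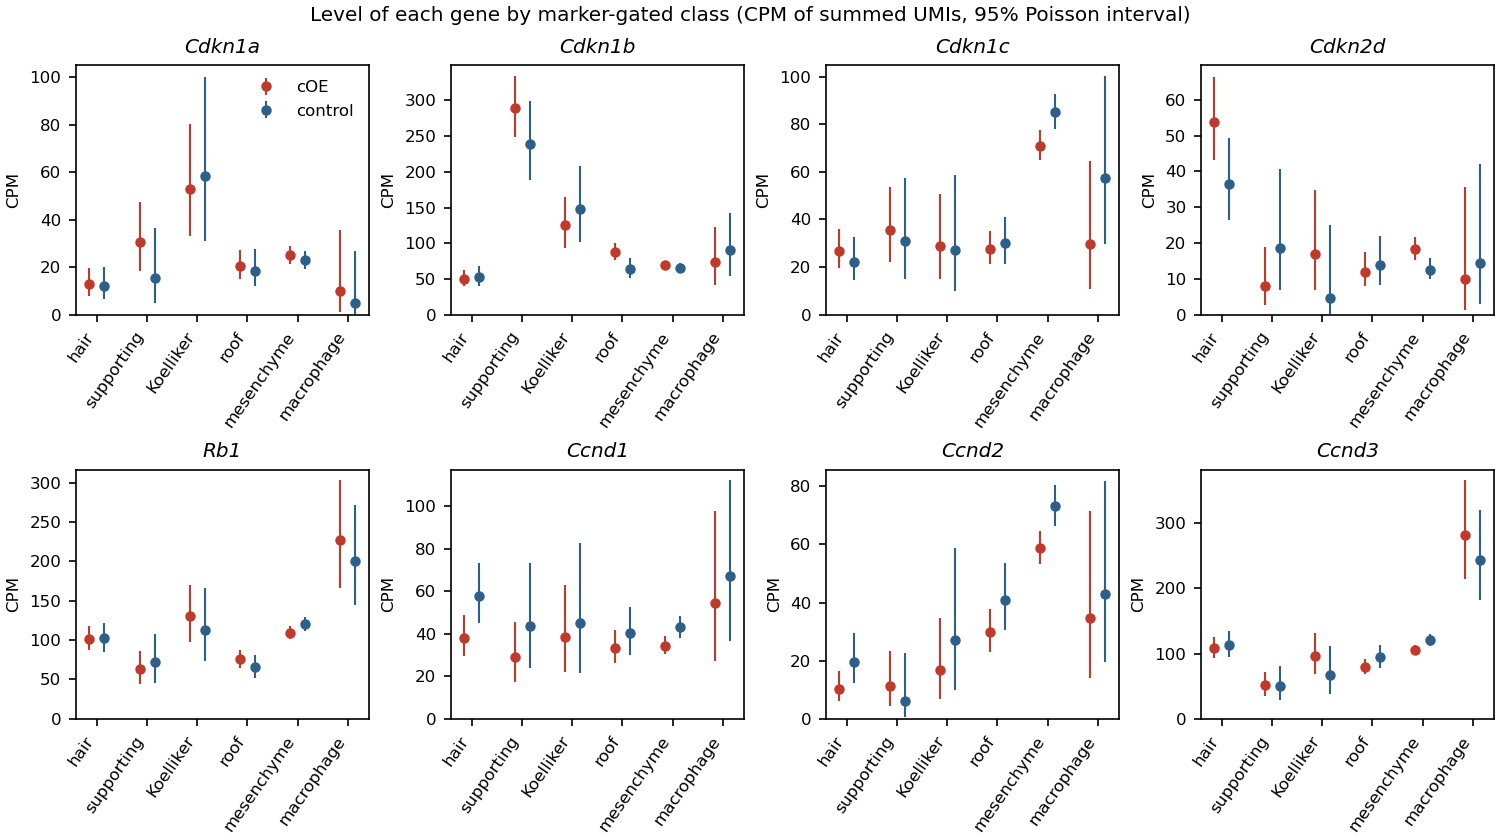
Level of each of the 8 genes (CPM of summed UMIs, linear axis from 0) in 6 marker-gated classes, with cOE in red and control in blue; bars are 95% Poisson intervals. Cdkn1b peaks in supporting cell-like nuclei (289 and 240 CPM), Cdkn2d in hair cell-like nuclei (53.9 and 36.6 CPM) and Ccnd3 in macrophage-like nuclei (282 and 244 CPM).

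Cdkn1a, the CIP/KIP inhibitor that p53 induces, was highest in Koelliker organ-like nuclei, at 53.02 CPM in cOE (22 UMIs, interval 33.2 to 80.3) and 58.5 CPM in control (13 UMIs, interval 31.2 to 100.1). Mesenchyme-like nuclei were next by mean over libraries, at 24.9 CPM (21.4 to 28.8) and 22.8 CPM (19.1 to 27.0), and both libraries separated the pair. Supporting cell-like nuclei stood at 30.5 CPM (18.4 to 47.7) in cOE and 15.6 CPM (5.05 to 36.3) in control. Their intervals overlapped those of Koelliker organ-like nuclei in both libraries, so the peak is not apart from every class. The log2 ratio of Koelliker organ-like nuclei to all others was 0.98 in cOE and 1.33 in control, so the gene was not called, where 3.42% of genes were called higher. In cOE, 5 of the 22 UMIs came from 1 nucleus. Hair cell-like nuclei held 12.7 CPM in cOE and 11.9 CPM in control. Macrophage-like nuclei held 2 and 1 UMIs of Cdkn1a, too few to place them, although the rule called Cdkn1a lower there, as it did 27.8% of genes.

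Cdkn1c, the third CIP/KIP inhibitor and an imprinted gene, was highest in mesenchyme-like nuclei. It stood there at 71.0 CPM in cOE (519 UMIs, interval 65.0 to 77.4) and 85.1 CPM in control (504 UMIs, interval 77.8 to 92.9). Macrophage-like nuclei, next by mean over libraries, were apart from them in cOE but not in control. Against all other kept nuclei the log2 ratios were 0.62 and 0.59, under 2-fold, and 1.28% of genes were called higher there. The 4 epithelial classes were close together, between 22.1 and 35.3 CPM in both libraries. Hair cell-like over supporting cell-like gave -0.41 (-1.18 to 0.40) for cOE and -0.49 (-1.59 to 0.73) for control, and both intervals included 0. Cdkn1c shares its span on the same strand with 4933417O13Rik, so reads of that gene and of Cdkn1c may not be told apart.

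Rb1, whose protein holds E2F factors inactive, was present in every class. Its hair cell-like level was 102 CPM in both libraries (intervals 87.0 to 118 and 84.7 to 122). The level in supporting cell-like nuclei was 62.7 CPM (44.6 to 85.6) and 71.6 CPM (45.4 to 107). The hair cell-like over supporting cell-like log2 ratio was 0.70 (0.19 to 1.24) for cOE and 0.51 (-0.14 to 1.23) for control. Both ratios were positive and under 2-fold. Macrophage-like nuclei were highest, at 228 and 201 CPM, and their intervals overlapped those of Koelliker organ-like nuclei, next by mean over libraries. Rb1 spans 142395 bases of chromosome 14 and overlaps Gm17233 on its own strand, and its intron reads may include reads of that gene.

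Ccnd3, a D-type cyclin, stood at 108 CPM in cOE (179 UMIs, interval 93.1 to 125) and 113 CPM in control (133 UMIs, interval 94.8 to 134) in hair cell-like nuclei. Supporting cell-like nuclei had 51.4 CPM (32 UMIs, interval 35.2 to 72.6) and 49.8 CPM (16 UMIs, interval 28.5 to 80.8). The supporting cell-like intervals lay below the hair cell-like ones in both libraries. The log2 ratio was 1.08 (0.53 to 1.67) for cOE and 1.19 (0.43 to 2.03) for control. Ccnd3 was not raised in hair cell-like nuclei against the rest as a whole, where the ratios were 0.15 and -0.02. Its call against supporting cell-like nuclei held in 8 of 16 alternative settings. Under the 7 gates that kept mixed nuclei, the cOE ratio ran from 0.52 to 1.02 and the control ratio from 0.81 to 1.33, so the direction held while the 2-fold limit often did not.

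Ccnd3 was highest in macrophage-like nuclei, at 282 CPM in cOE (57 UMIs, interval 214 to 366) and 244 CPM in control (51 UMIs, interval 182 to 321). Mesenchyme-like nuclei came next by mean over libraries, at 105 CPM (98.2 to 113) and 121 CPM (112 to 130), and the pair was separated in both libraries. In cOE, hair cell-like nuclei stood above mesenchyme-like nuclei, at 108 CPM (93.1 to 125). Ccnd3 was the only one of the 8 genes called higher in macrophage-like nuclei against the rest (log2 ratios 1.54 and 1.10), where 8.72% of genes were. The call was lost in 3 of 9 alternatives, 1 of which left out the nucleus with most Ccnd3 UMIs in each library.

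Ccnd2 was highest in mesenchyme-like nuclei and low in the sensory epithelium. Mesenchyme-like nuclei had 58.8 CPM in cOE (430 UMIs, interval 53.4 to 64.7) and 73.1 CPM in control (433 UMIs, interval 66.4 to 80.3). Hair cell-like nuclei had 10.3 CPM (17 UMIs, interval 5.998 to 16.5) and 19.6 CPM (23 UMIs, interval 12.4 to 29.4), and supporting cell-like nuclei 7 and 2 UMIs. The mesenchyme markers stood at 374 and 391.6 CPM in hair cell-like nuclei, against 3063 and 2760 CPM in mesenchyme-like nuclei, and the part of free RNA in the low Ccnd2 levels was not tested. Mesenchyme-like nuclei exceeded both sensory classes in each library, but their intervals overlapped those of macrophage-like nuclei, the next class (34.7 and 43.0 CPM). In supporting cell-like nuclei Ccnd2 was called lower than in the rest and Cdkn1b was called higher (log2 ratios 1.59 and 1.53), against 17.9% and 5% of genes. The Ccnd2 call was lost in 2 of 9 alternatives, and the Cdkn1b call held in all 9.

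Ccnd1, which supporting cells are known to keep after birth, varied little between classes. Its lowest and highest levels over the 6 classes were 28.9 CPM (supporting cell-like) and 54.5 CPM (macrophage-like) in cOE. In control they were 40.2 CPM (roof epithelium-like) and 67.0 CPM (macrophage-like). Supporting cell-like nuclei of control had 43.6 CPM, and that class was lowest by mean over libraries, at 36.2 CPM. No neighbours in its order were separated in either library. Hair cell-like over supporting cell-like gave 0.40 (-0.37 to 1.24) and 0.41 (-0.43 to 1.36). Ccnd1 overlaps LTO1 on the other strand.

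Between hair cell-like and supporting cell-like nuclei, 7 of the 8 genes had enough UMIs to be called. Of these, Ccnd3 was called higher and Cdkn1b lower, against 13.9% and 10% of the 9774 genes that could be called. The share of members called is thus near that of genes in general. Their median log2 ratio was 0.61, against -0.00 for all genes. The members ran both ways, so this median of 7 genes does not describe a shift they share. Cdkn2d, Rb1, Ccnd1 and Ccnd3 were above 0 in both libraries, and Cdkn1b and Cdkn1c below. The median also counts Ccnd2 and leaves out Cdkn1a. Cdkn1a fell under the UMI minimum with 19 UMIs in control. Ccnd2 pointed opposite ways in the libraries, -0.13 (-1.47 to 1.39) for cOE and 1.65 (-0.36 to 4.78) for control, and both intervals included 0.

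**Figure D3:**
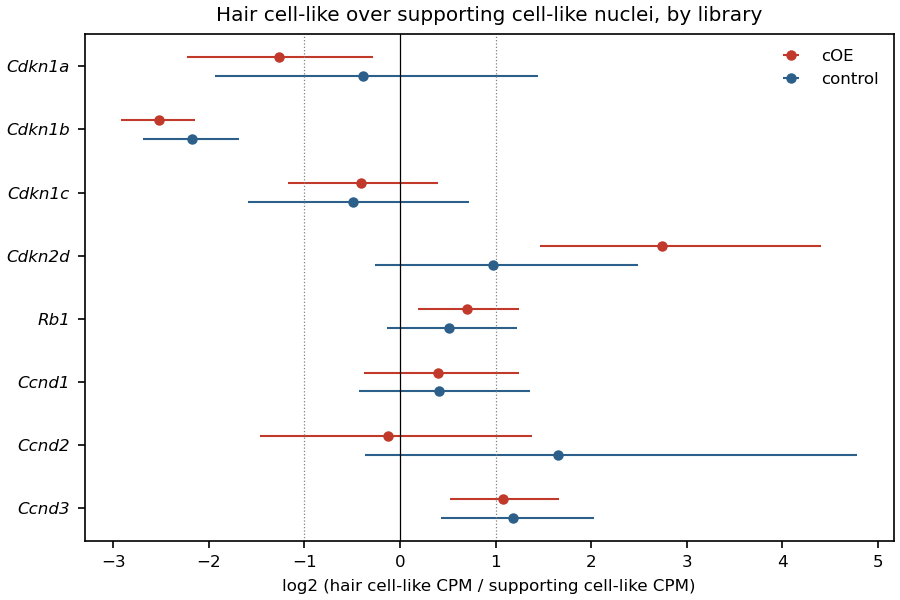
Log2 ratio of hair cell-like to supporting cell-like CPM for each gene (cOE in red, control in blue; bars are 95% counting intervals, dotted lines mark 2-fold). Cdkn1b lies at -2.52 and -2.18, Ccnd3 at 1.08 and 1.19, and Cdkn2d at 2.75 and 0.97.

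The wider pathway was read from 7 lists with 45 other genes, which cover the remaining INK4 and pocket protein genes, cyclin-dependent kinases, E2F and DP factors, cyclins E, A and B, the DREAM complex, the machinery that degrades inhibitors and cyclins, and regulators such as p53 and Myc. Only 22 of the 45 had enough UMIs for the hair cell-like and supporting cell-like comparison, and none was called in either direction. The lists of cyclin-dependent kinases and of cyclins E, A and B each had 1 gene with enough UMIs. The others held too few UMIs to be read. Tfdp2, a DP partner of E2F factors, was under 2-fold but had intervals above 0 in both libraries, at 0.79 (0.42 to 1.19) and 0.72 (0.17 to 1.30). It is named because of those values.

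Inner and outer hair cell-like nuclei were compared within the hair cell-like class, with 52 and 254 nuclei in cOE and 13 and 233 in control. None of the 6 genes with enough UMIs was called, against 2.86% of genes higher and 5.74% lower. A stricter rule, with at least 2 own markers and none of the other list, gave 3 members lower in inner hair cell-like nuclei. The share of all genes under that rule was not counted, so the 3 calls cannot be set against it. Cdkn2d stood at 45.4 and 56.3 CPM in inner and outer hair cell-like nuclei of cOE. In control the inner class held 1 Cdkn2d UMI. Ccnd1 was lower in inner hair cell-like nuclei of cOE, with 3 UMIs against 58 and a log2 ratio of -2.20 (-4.52 to -0.58), while in control the ratio was -0.26 (-2.18 to 1.16).

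Nuclei with at least 3 proliferation markers, 107 in cOE and 127 in control, were compared with the others, with mixed nuclei left out of both sides. These nuclei, called dividing here by marker count alone, were deeper. Their medians were 4460 UMIs in cOE and 3937 in control, against 2384 and 2201 in the others. The sides were not matched for depth or class, and the part of either in the ratios was not tested. None of the 8 genes was called, against 2.28% of genes higher and 3.5% lower. Cdkn1b was nearly level, at 95.3 against 98.8 CPM in cOE and 82.4 against 84.6 CPM in control, with log2 ratios of -0.05 (-0.47 to 0.34) and -0.04 (-0.46 to 0.36). Cdkn1a, Cdkn1c, Cdkn2d and Ccnd2 were lower in dividing nuclei in both libraries, from -0.26 to -0.93, and Cdkn1c in control was the only one of these whose interval left out 0 (-0.54, -1.09 to -0.03). With at least 4 proliferation markers Ccnd2 turned to 0.27 in cOE and Cdkn2d to 0.07 in control, and Cdkn2d had no UMI in the dividing nuclei of cOE. Cdkn1a and Cdkn1c stayed lower with at least 2 and with at least 4 markers. Rb1 and Ccnd3 were slightly higher in both libraries, by 0.10 to 0.43. The Rb1 interval left out 0 in cOE (0.43, 0.09 to 0.75) but not in control (0.18, -0.17 to 0.51).

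The same contrast did separate other genes of the pathway. Of the 42 pathway genes with enough UMIs, 10 were called higher in dividing nuclei and none lower. The cyclins of the S and G2 phases were among them, with Ccnb2 at 3.41 and 3.75, Ccna2 at 2.89 and 4.55 and Ccnb1 at 3.14 and 3.97 on the log2 scale. In that order they rested on 10, 4 and 6 UMIs in dividing nuclei of cOE and on 13, 13 and 11 in control. The mitotic kinase Cdk1 stood at 3.61 and 4.49, and E2f7, a repressor among the E2F factors, at 4.82 and 4.46. Rbl1, a pocket protein related to Rb1, was higher by 1.49 and 1.13. The remaining 4 were Cdk2, E2f2, Ccne1 and Fbxo5. Ccne1 had 3 UMIs in dividing nuclei of cOE and 4 in control, and its cOE interval included 0 (-0.32 to 3.68). None of the 10 is in the list of proliferation markers used to pick the nuclei, though they are expressed in the same phases as those markers.

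**Figure D4:**
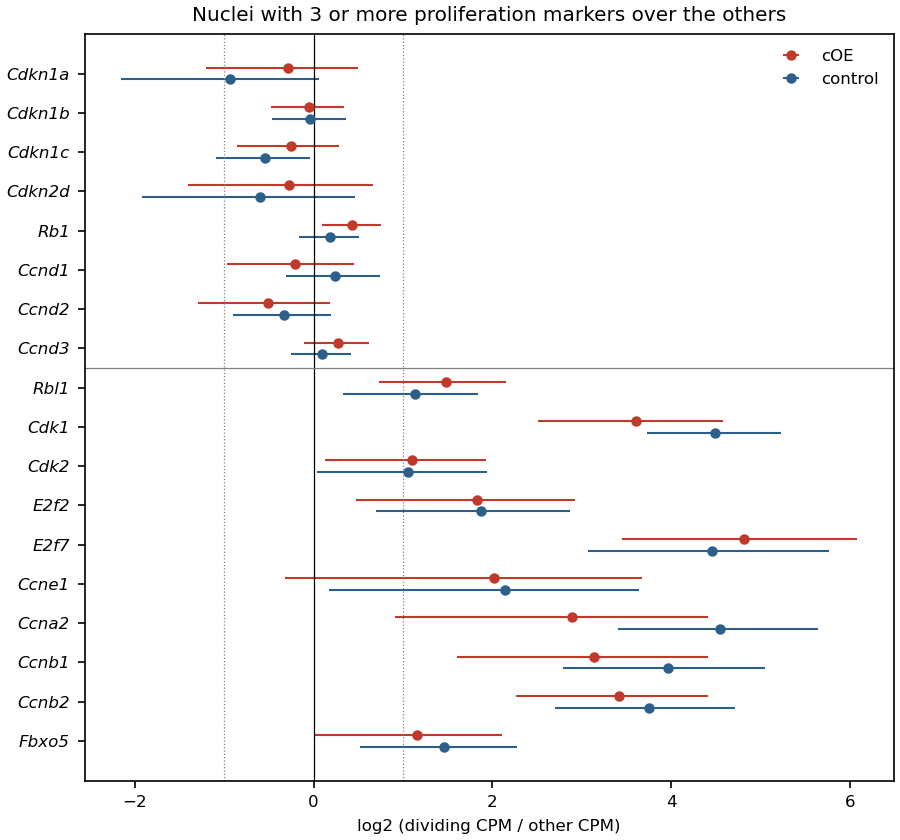
Log2 ratio of CPM in nuclei with 3 or more proliferation markers to the other nuclei, for the 8 genes (above the line) and the 10 pathway genes called higher (below it); cOE in red, control in blue, bars are 95% counting intervals, dotted lines mark 2-fold. The 8 genes lie between -0.93 and 0.43, and the called genes between 1.06 and 4.82.

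In the comparison of Serpine2 cOE with control, none of the 8 genes was 2-fold apart in hair cell-like, supporting cell-like or any other class among those with at least 20 UMIs over both libraries. Over all genes, 5.04% were 2-fold apart either way in hair cell-like, 6.32% in supporting cell-like and 3.11% in mesenchyme-like nuclei. The shares were 8.28% in Koelliker organ-like, 4.82% in roof epithelium-like and 8.8% in macrophage-like nuclei. Rb1 was level in hair cell-like nuclei (-0.01, interval -0.35 to 0.34), as were Ccnd3 (-0.06, -0.39 to 0.27) and Cdkn1b (-0.07, -0.56 to 0.43). These intervals leave out a 2-fold difference between the libraries. Over 10 alternative settings the Cdkn1b ratio went as low as -0.78, with 2 settings outside its interval. The Rb1 ratio went as low as -0.49, with 1 outside. At the minimum of 4 markers stood 1.27% of hair cell-like nuclei in cOE and 11.5% in control, and the part of this in the ratios was not tested. Cdkn2d was higher in cOE, 0.56 (0.02 to 1.12), and Ccnd1 lower, -0.60 (-1.12 to -0.09), with 63 UMIs in cOE and 68 in control. An interval above 0 was found for 6.95% of genes in that class and an interval below 0 for 8.04%. Ccnd2 was at -0.93 (-1.92 to 0.04) on 17 and 23 UMIs and passed 2-fold in 3 alternatives: without the deepest 5% of nuclei, with nuclei weighted equally and without the nucleus with most Ccnd2 UMIs.

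In supporting cell-like nuclei, the class with the highest Lgr5 level (365 CPM in cOE, 286 CPM in control), no interval left out 0 among the 6 genes with enough UMIs, against 4.1% of all genes above 0 and 4.54% below. Cdkn1b was at 0.27 (-0.12 to 0.68), and its interval leaves out a 2-fold difference. Over 10 alternative settings, however, its ratio ran from 0.10 to 1.18, with 1 setting outside that interval. Cdkn1a was at 0.97 (-0.50 to 2.75) on 19 and 5 UMIs, and Ccnd1 at -0.59 (-1.68 to 0.53) on 18 and 14. Differences of that size were not detectable at this depth.

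**Figure D5:**
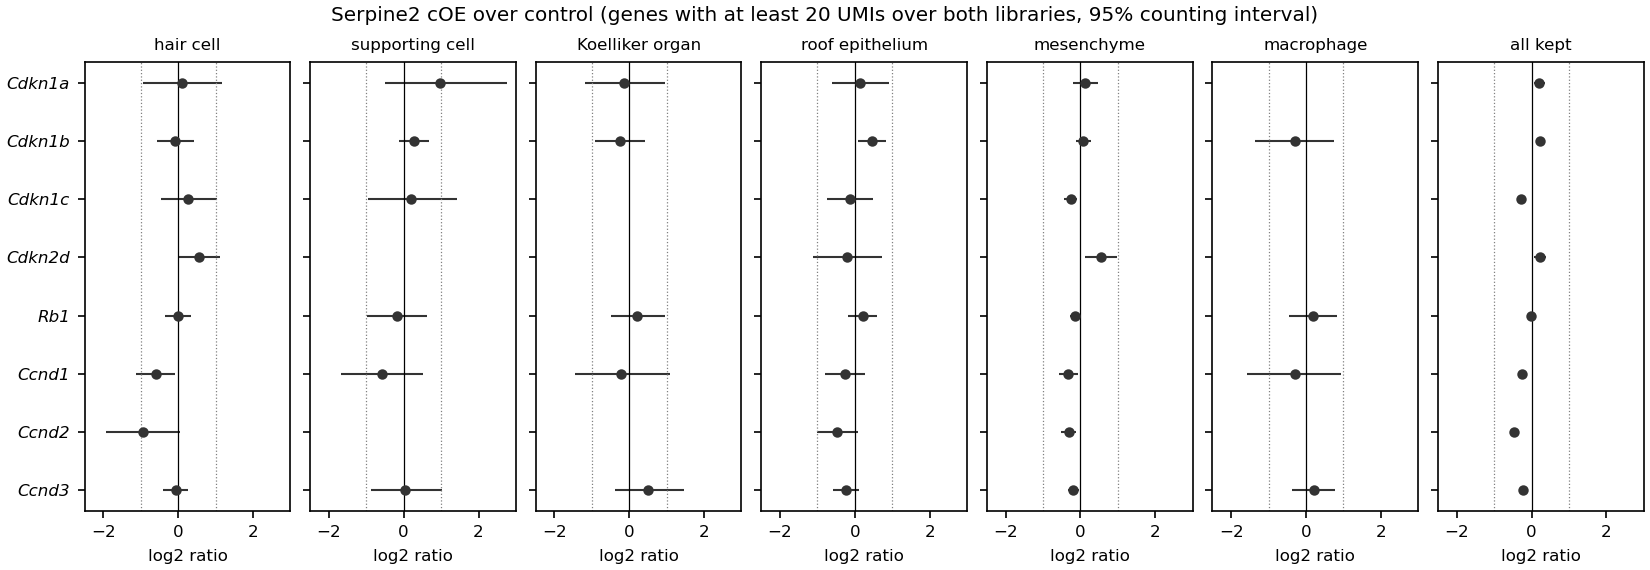
Log2 ratio of cOE to control CPM for each gene in 6 classes and in all kept nuclei (genes with at least 20 UMIs over both libraries; bars are 95% counting intervals, dotted lines mark 2-fold). No point reaches 2-fold, and Ccnd1 lies below 0 in all 6 classes.

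In the larger classes smaller differences stood out of the counting error. In mesenchyme-like nuclei the intervals of Ccnd1 (-0.32, -0.58 to -0.06), Ccnd2 (-0.31, -0.51 to -0.12), Ccnd3 (-0.19, -0.34 to -0.05) and Cdkn1c (-0.26, -0.44 to -0.08) lay below 0, and that of Cdkn2d (0.54, 0.12 to 0.97) above it. An interval below 0 was found for 10.5% of genes in that class and an interval above 0 for 12.5%. In roof epithelium-like nuclei Cdkn1b was higher in cOE, 0.45 (0.08 to 0.84), where 8.21% of genes had an interval above 0. Ccnd1 was the one D-type cyclin lower in cOE in all 6 classes, from -0.60 to -0.22, and 5.28% of the 4073 genes with enough UMIs in every class were lower in all 6. Ccnd3 was lower in 3 classes and higher in 3. These classes come from the same 2 libraries, so their directions are not separate observations.

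Over all kept nuclei the D-type cyclins were all lower in cOE and 3 of the 4 inhibitors higher. Ccnd2 was at -0.47 (-0.57 to -0.37), from 53.4 CPM in control to 38.6 CPM in cOE, Ccnd1 at -0.24 (-0.35 to -0.14) and Ccnd3 at -0.23 (-0.30 to -0.17). Cdkn1b was at 0.23 (0.15 to 0.30), Cdkn2d at 0.22 (0.05 to 0.39) and Cdkn1a at 0.21 (0.07 to 0.35), while Cdkn1c was at -0.29 (-0.38 to -0.20) and Rb1 at -0.00 (-0.07 to 0.06). At this depth 22.6% of all genes had an interval above 0 and 19.6% below, against 7 of the 8 genes here. Each of the 8 genes had at least 479 UMIs in either library, while the shares cover all genes with at least 20 UMIs over both. No share was counted for genes of like depth, so the 7 cannot be set against it. These sums also include the mixed nuclei. The share of gated nuclei differed as well, with supporting cell-like nuclei at 1.19% of kept nuclei in cOE and 0.748% in control and roof epithelium-like nuclei at 4.99% and 3.42%. The part of this makeup in the differences over all nuclei was not tested. Litter, dissection and library preparation cannot be told apart from the genotype with 1 library per group.

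The 2 genes whose levels over the 12 points (6 classes in each of 2 libraries) most resembled each gene were taken by Pearson's r of log2(CPM + 10), among 18564 genes. Cdkn1b was nearest to Rexo5 (r = 0.97) and to Spry2 (r = 0.96), an inhibitor of receptor tyrosine kinase signalling. Cdkn2d was nearest to Adarb2 (r = 0.94) and to Polh (r = 0.94), a DNA polymerase that copies past lesions. Ccnd3 was nearest to Tbc1d9b and Soat1 (r = 0.96 and 0.95), Ccnd2 to Ahnak and Ssbp2 (0.94 and 0.93), and Ccnd1, which varied least, to Psmc1 and Cenpc1 (0.92 and 0.90). Cdkn1a was nearest to Net1 and Styx (both 0.96), Cdkn1c to Clmp and Cstf2t (both 0.97) and Rb1 to Taf7 and Mtr (0.96 and 0.95). With 12 points of 6 classes and 18564 genes ranked, these values of r describe these points only.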

How the data were processed

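Per the file headers, Cell Ranger 8.0.1 wrote the matrices that the authors deposited, which hold counts of UMIs by gene and barcode. STAR is named without a version in the submitters' processing notes. The build is GRCm39 in one label and mm10 in another, and no level used coordinates. Nuclei with at least 500 genes and at most 5% mitochondrial UMIs were kept. No doublet caller was run. Mixed nuclei, 864 in cOE and 566 in control, were left out of the classes instead. They stayed in sums over all kept nuclei and on the comparison side of each class against the rest. The gate's thresholds and the exclusion of mixed nuclei were set after the data were seen. Of 7 other gates looked at first, all with mixed nuclei kept, some were read with levels of the 8 genes in view. The 8 genes and all lists were chosen with earlier results of these data known. UMIs were summed per class and library, with exact Poisson intervals for CPM and exact conditional intervals for ratios. The 6 main classes had at least 40 nuclei in each library. The inner hair cell-like subclass, with 13 in control, did not. At these depths 0 UMIs in supporting cell-like nuclei still allows 4.82 CPM in cOE and 9.33 CPM in control. Alternatives covered the filters, gate, weighting, thinning, UMI minimum and TMM factors (edgeR 4.0.16, R 4.3.3). On counts simulated with counting error only, 88% of 100 genes changed 4-fold were called for hair cell-like over supporting cell-like nuclei (9730 genes tested). Only genes with at least 100 UMIs summed over both classes and libraries were changed. The share therefore does not cover sparser genes such as Cdkn1a and Ccnd2. All 8 genes are named, and beside them pathway genes called 2-fold and the 2 most alike in pattern. Python 3.11.15, numpy 2.4.6 and scipy 1.17.1 were used.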

Additional observations from a re-analysis of the deposited data

Results flagged for a closer look

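In 8 comparisons within a library the ratio pointed opposite ways in cOE and control, and with 1 library per group the difference was not tested in any. Cdkn2d in supporting cell-like nuclei against the rest was at -1.2 in cOE and 0.26 in control, on 5 and 6 UMIs. Ccnd2 in hair cell-like over supporting cell-like nuclei was at -0.13 and 1.65. Cdkn1a in supporting cell-like nuclei against the rest was at 0.17 and -0.6. Cdkn1b in macrophage-like nuclei was at -0.42 and 0.1, Rb1 in mesenchyme-like nuclei at -0.03 and 0.15, and Ccnd3 in hair cell-like nuclei at 0.15 and -0.02. Ccnd1 in dividing nuclei was at -0.21 and 0.24, and Rb1 in inner over outer hair cell-like nuclei at 0.46 and -0.04. All are log2 ratios with cOE first.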

How the results depend on the processing

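Each class rests on 1 library per group and few nuclei, and depth limits Cdkn2d, Ccnd2 and Cdkn1a most. No paired analysis was possible because each group had 1 library. Of the counts in the report, 1 member was called higher and 1 lower in hair cell-like over supporting cell-like nuclei. The number higher was 2 (Cdkn2d added) with 1 more marker, without the deepest 5% of nuclei, with nuclei weighted equally, without the nucleus with most UMIs of the gene and with TMM factors. At 1.5-fold it was also 2. It was 0 after thinning to 1000 UMIs and in the 6 other gates with mixed nuclei. Against the rest, the number lower in hair cell-like nuclei went from 2 to 1 with at least 1000 genes, 1 marker fewer, equal weights or mixed nuclei kept, and the number higher went from 1 to 0 with mixed nuclei kept. In supporting cell-like nuclei the number lower was 2 with 1 more marker, equal weights, the top nucleus left out or mixed nuclei kept, and 0 with 1 marker fewer. In macrophage-like nuclei the number higher was 0 with 1 more marker, without the top nucleus or with mixed nuclei kept, and 2 with equal weights or thinning. Koelliker organ-like nuclei had 0 calls in either direction, and 1 lower with the looser filter, 1 more marker, 1 marker fewer or without the deepest 5%. They had 2 lower with equal weights, thinning or the top nucleus left out, and 1 higher with 1 more marker or thinning. In the main setting 3.42% of all genes were called higher and 19.2% lower in Koelliker organ-like nuclei. For comparisons of a class with the rest, the share of all genes was counted in the main setting only. Among members, 1 passed 2-fold between cOE and control in hair cell-like nuclei without the deepest 5%, with equal weights or without the top nucleus. In supporting cell-like nuclei 1 did with thinning, without the top nucleus, with TMM factors or with a minimum of 1 UMI. The stricter inner and outer rule gave 3 members lower in inner hair cell-like nuclei, but the share of all genes called under it was not counted. At 1.5-fold 1 pathway gene was higher in hair cell-like nuclei and 1 lower in dividing nuclei. The cause of these shifts was not tested.

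Over all genes, 1359 were called higher and 978 lower in hair cell-like over supporting cell-like nuclei. Thinning gave 607 and 307, a minimum of 50 UMIs gave 566 lower, and a minimum of 1 UMI gave 3499 and 2186. Between cOE and control 592, 498, 501 and 639 genes were 2-fold apart in hair cell-like, supporting cell-like, mesenchyme-like and all kept nuclei. These were 160, 73, 152 and 291 at 50 UMIs and 6251, 6243, 5506 and 4465 at 1 UMI. Equal weights gave 1084 in hair cell-like and 1032 in all kept nuclei, and thinning gave 227 in supporting cell-like nuclei. The Cdkn1b share in hair cell-like nuclei was 19.3% in cOE and 20.3% in control unthinned and 8.55% in cOE at 2000 UMIs. In supporting cell-like nuclei it was 63.6% and 64.2% unthinned and 38.7% in control at 2000 UMIs. The Cdkn2d share in hair cell-like nuclei was 5.83% and 4.22% at 1000 UMIs, 12.2% and 10.7% at 2000 UMIs and 25.6% and 16.5% unthinned. In control supporting cell-like nuclei it was 8.96% unthinned, against 0 of 65 at 1000 UMIs, for which 3 counts give a limit of 4.62% and the Clopper-Pearson interval one of 5.52%.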
